A study of Mus musculus with 25 samples.

Results

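The wild-type mice of the study were labelled by knockout line. ChREBPβ WT mice were the littermates of a ChREBPβ knockout line made by CRISPR/Cas9 deletion of the β-specific exon of Mlxipl. Total ChREBP WT mice were the wild types labelled for an Mlxipl-null line that lacks both the α and the β isoform. Whether they were littermates of that line was not given in the sources used here. Members were chosen by their labels alone, and 14 of the 25 arrays of the series qualified, 7 of ChREBPβ WT and 7 of total ChREBP WT. Neither group carries an edited Mlxipl allele, so a difference between them is a difference between lines, litters, dissections or handling and cannot be told apart among these. All mice were C57BL6/J males, fasted and then refed with food and glucose in the drinking water, and their ages were not given in the sources used here. The tissue was perigonadal white adipose tissue (pgWAT), the fat pad that lies against the epididymis. Each mouse gave 1 array, each of the 4 wash batches held both wild types, and knockouts of both lines (6 ChREBPβ KO and 5 total ChREBP KO arrays) shared the model.

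ChREBP, the product of Mlxipl, is a transcription factor that responds to glucose metabolites and drives genes of sugar breakdown and of fat synthesis. In fat, glucose enters mainly through the insulin-responsive transporter Slc2a4, is broken down to pyruvate and leaves the mitochondrion as citrate, from which fatty acids are built. Adipose tissue lies next to other abdominal organs, and hepatocytes make a few secreted proteins in such amounts that their transcripts can be seen in a sample of another tissue.

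The arrays were alike in quality. Median raw intensity was 85 to 123 per wild-type array against a local background of 15 to 22, and the spots well above background made up 73.0% to 77.3%. Levels below are log2 intensities after quantile normalisation, a difference is total ChREBP WT minus ChREBPβ WT on the log2 scale with its standard error (SE), and a call means an adjusted p below 0.05 (limma with Benjamini-Hochberg adjustment over the 40561 of 56605 gene probes that the deposited series table holds). A value in one group of 7 is given as lowest, median and highest. Probe positions are from the array design (mouse build mm9), and with no mm9 annotation at hand the exon or intron of a probe is not stated. The tissue label was checked against fat markers: the 15 adipocyte genes averaged 16.32 ± 0.10 (SD, n = 7) in ChREBPβ WT and 16.23 ± 0.14 (n = 7) in total ChREBP WT, near the top of the scale.

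Transcripts of the liver separated the wild types most. The 24 liver genes measured, which encode plasma proteins and enzymes of hepatocytes, averaged 11.30, 14.22 and 15.28 in ChREBPβ WT and 6.79, 8.61 and 12.002 in total ChREBP WT. Only replicate 2 of total ChREBP WT, at 12.002, reached the ChREBPβ WT range, above replicate 1 at 11.30. The share of an array's summed intensity that came from these genes was 0.114% to 1.20% in ChREBPβ WT (median 0.753%) and 0.00507% to 0.159% in total ChREBP WT (median 0.0159%). The difference of the list level was -7.04, -4.21, -3.56 and -3.89 within wash batches 1, 2, 3 and 4. The knockouts were divided by line as well, at 9.74 to 14.48 in ChREBPβ KO and 6.67 to 7.48 in total ChREBP KO.

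Transcripts of kidney, epididymis and testis were high on some arrays only. Kidney transcripts were high in replicates 1, 3 and 7 of ChREBPβ WT (list level 9.45, 9.63 and 8.44) and at most 6.79 in every other wild-type array. Kap, a kidney androgen-regulated protein, read 16.08, 16.12 and 15.02 on those arrays and 8.11 at most in total ChREBP WT. Epididymis transcripts stood at 11.04 in replicate 2 of total ChREBP WT, next to 8.16 in replicate 1 of ChREBPβ WT and 8.17 in replicate 8 of total ChREBP WT. Testis transcripts stood at 10.17 in replicate 2 of ChREBPβ WT and 9.28 in replicate 2 of total ChREBP WT. Of the epididymis list, Adam7, an epididymal membrane protein, was the 1 of 8 genes called (6.25, 7.93 and 15.60 in total ChREBP WT and 4.31, 4.54 and 6.52 in ChREBPβ WT, a difference of 3.73 ± 1.05), and no gene of the testis list was called among 9. Adam7 was well above background on only 3 of 7 ChREBPβ WT arrays, so the size of its difference is not exact. Pancreas levels overlapped between the groups, with 2 of 8 genes called lower. Of 6 intestine genes 2 were called lower, both of which rose with the liver score described next. Over all genes, 13.3% were called higher and 8.59% lower by their brightest probe. The 11 skeletal muscle genes averaged 7.44 ± 0.18 and 7.71 ± 0.14 (SD, n = 7 each).

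**Figure D1:**
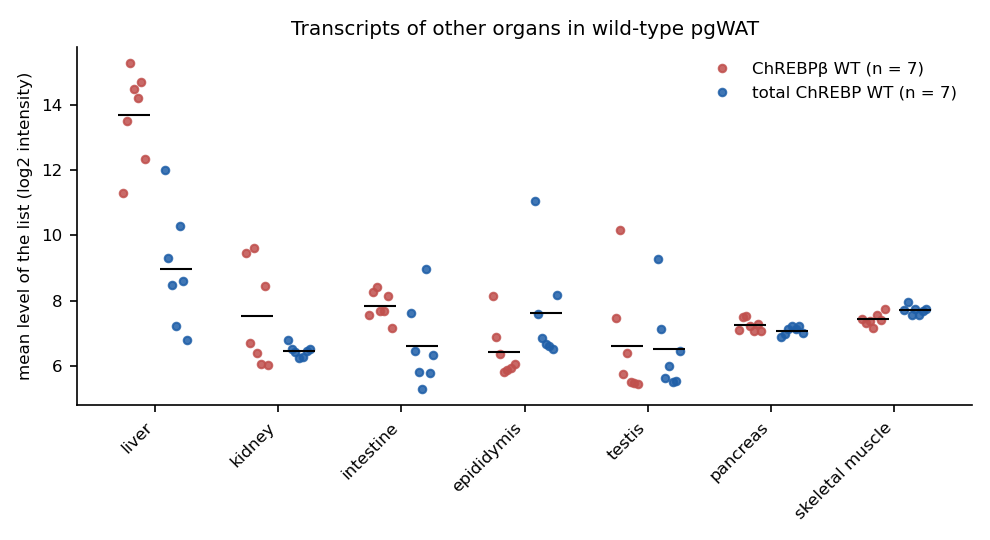
Mean log2 level of 7 organ gene lists (horizontal axis) on each of the 14 wild-type arrays, ChREBPβ WT in red and total ChREBP WT in blue, with a black line at the mean of 7. Liver levels lie at 11.30 to 15.28 against 6.79 to 12.002. Kidney levels are high on some ChREBPβ WT arrays only, and epididymis and testis levels on some arrays of both groups.

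Because liver and kidney transcripts differed between the wild types, the comparison was made in a pair of fits. The first held the groups and the wash batch. The second added, for each array, the liver score and the kidney score, each the mean deviation of the list's genes from their mean over all arrays. In that fit a gene's slope on a score comes from arrays of the same group, since the groups have their own terms. A call was kept if the probe was called in both fits in the same direction with at least 0.5 of its difference left. Adding the scores raised the median SE of a difference from 0.0917 to 0.152, so a call can also be lost to the wider error.

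Without the scores, 8840 probes of 7085 genes were called, 5876 probes higher and 2964 lower in total ChREBP WT. That was 21.8% of all probes, 14.5% higher and 7.31% lower. By the brightest probe of each gene, as in the lists below, 13.3% of genes were called higher and 8.59% lower. The higher calls were mostly small and the lower calls included the large ones: the median called difference was 0.31 upwards and -0.54 downwards, 9 genes were at least 4-fold higher and 408 at least 4-fold lower. The median over all probes was 0.05. The 7 and 7 arrays did not overlap for 2062 probes (5.08% of all, and 5.42% of genes by their brightest probe).

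With the scores, 1936 of the called probes were kept (4.77% of all probes), in 1654 genes, of which 953 were higher and 703 lower in total ChREBP WT. By the brightest probe of each gene, 4.98% of genes were kept, 2.71% higher and 2.26% lower. The large lower differences were the ones that went. Of the 477 probes called at least 4-fold lower, 84.7% rose with the liver score against 2.16% of all probes, and 9.22% had at least 0.5 of the difference left. Of the 183 probes called at least 2-fold higher, 97.8% had at least 0.5 left. Between these extremes lay many small calls that neither were kept nor rose with a score, 4732 higher ones with a median of 0.29 without and 0.24 with the scores, and 1419 lower ones with a median of -0.42 and -0.37. The number kept depended on the arrays in the fit. It was 605 genes without replicate 2 of total ChREBP WT, the array with the most liver signal of its group and high epididymis and testis signal, 498 when an epididymis score was added, and 3 when the 14 wild-type arrays were fitted without the knockouts.

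**Figure D2:**
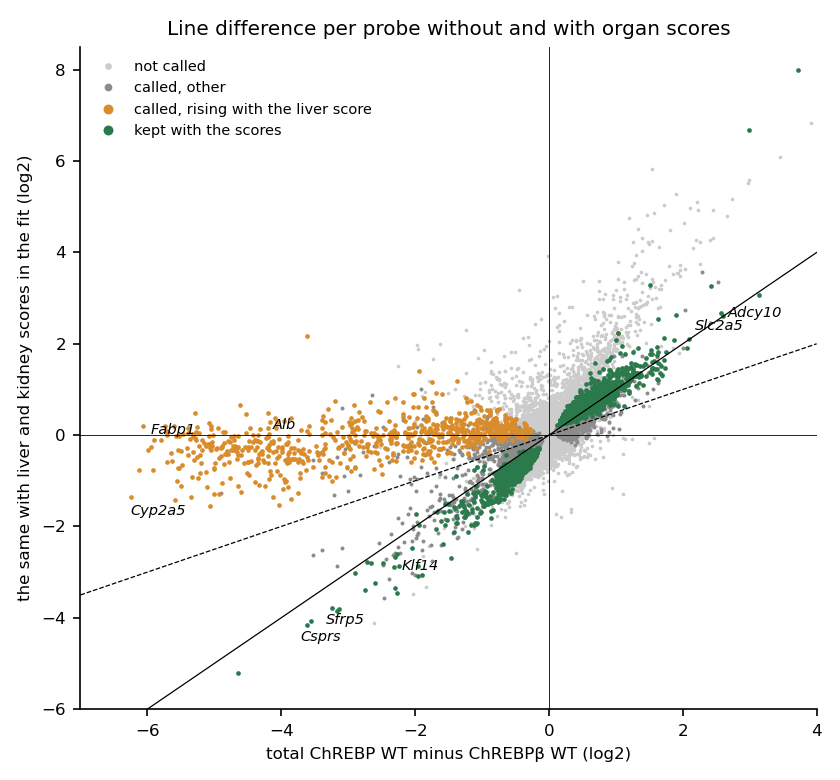
Each point is a probe, with its difference between the wild types (log2) on the horizontal axis and the same difference with liver and kidney scores in the fit on the vertical axis; the solid line marks equality and the dashed line 0.5 of the difference. Probes that rose with the liver score (orange) reach -6.25 without the scores and lie much closer to 0 with them (Cyp2a5 at -1.36, Alb at -0.16). Kept probes (green) tend to lie beyond the solid line. With the scores their median goes from 0.53 to 0.64 for higher ones and from -0.45 to -0.72 for lower ones. A kept probe had to be called again with a wider error, which favours differences that grew, so this growth is no result. Adam7, at 3.73 and 7.99, lies above the solid line.

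The liver list itself was lower in total ChREBP WT, with all 24 genes called (the background is 8.59% of genes by their brightest probe) and a median of -4.76. These genes make up the liver score, so that they rise with it and have a median of 0.05 once it is in the fit is built in and is no result. Alb, the main plasma protein, read 14.88, 17.25 and 17.65 in ChREBPβ WT and 10.49, 12.09 and 15.30 in total ChREBP WT, a difference of -4.13 ± 0.69 (SE, adjusted p = 0.000276). The groups overlapped for Alb through the highest total ChREBP WT array. Ttr, the thyroid hormone carrier transthyretin, differed by -6.06 ± 1.07, with 6 of 7 total ChREBP WT arrays well above background.

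Outside the list, the 8 largest lower differences that were not kept all rose with the liver score, which none of these genes enters. They were picked for not being kept and for not overlapping between the wild types. That they rise with a score and shrink once it is in the fit follows largely from this choice. Cyp2a5, a cytochrome P450 enzyme (chromosome 7, 27628169 to 27628228), read 10.53, 12.43 and 15.42 in ChREBPβ WT and 5.04, 6.10 and 10.05 in total ChREBP WT, a difference of -6.25 ± 0.83 (adjusted p = 3.6e-05). The difference was -1.36 with the scores. Ces3a (a carboxylesterase), Fabp1 (the liver fatty acid binding protein), Ugt2b38 (a glucuronosyltransferase), Mug1 (a plasma protease inhibitor), Cyp2a4, Slco1b2 (a hepatocyte organic anion transporter) and Cyp2c54 differed by -6.13 to -5.54 and by -1.41 to -0.27 with the scores. In total ChREBP WT, Cyp2c54 was well above background on 5 of 7 arrays, and Ugt2b38 and Slco1b2 on 6 of 7. Fewer kidney genes differed: 7 of the 18 listed were called lower, against 8.59% of all genes, with a median of -0.74. Since the 18 make up the kidney score, their values with it are not read. Miox, a kidney enzyme of inositol breakdown, read 5.56, 7.29 and 13.75 in ChREBPβ WT and 5.62, 5.75 and 6.29 in total ChREBP WT. Only its highest arrays, replicates 1, 3 and 7, lay beyond 7.29. Whether pieces of liver or kidney entered the dissected fat was not tested.

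Genes of ChREBP action and fructose use went in opposite directions, and the scores divided them. Of 11 genes, 5 were called higher and 5 lower (13.3% and 8.59% of all genes). The lower ones included G6pc, Tkfc, Khk and Pklr, enzymes of fructose and glucose handling that are abundant in liver. All 5 rose with the liver score and none was kept. Khk, ketohexokinase, differed by -1.81 ± 0.43 (adjusted p = 0.00447), and by 0.34 with the scores, but its second probe gave -0.19 (adjusted p = 0.263, not called). G6pc, which releases glucose in the liver, differed by -3.20 ± 0.58 (adjusted p = 0.000534) and by -0.12 with the scores.

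The 5 higher ones were kept. Slc2a5, the fructose transporter (chromosome 4, 149517775 to 149517834), read 11.82, 12.40 and 12.91 in total ChREBP WT and 9.65, 10.26 and 10.82 in ChREBPβ WT, a difference of 2.09 ± 0.34 (adjusted p = 0.000238). Fgf21, a secreted metabolic hormone (chromosome 7, 52869305 to 52869364), read 9.38, 10.13 and 10.42 against 7.56, 8.51 and 9.15, a difference of 1.63 ± 0.34 (adjusted p = 0.00171). Both were among the genes picked for being kept and not overlapping between the groups, and with the scores the differences were 2.10 and 2.55. Mlxipl itself, whose targeted exons the wild types keep, read 15.64, 16.01 and 16.28 in total ChREBP WT and 14.70, 15.07 and 15.43 in ChREBPβ WT. Its brightest probe (chromosome 5, 135613705 to 135613764) differed by 0.89 ± 0.13 (adjusted p = 0.000109) and by 0.77 with the scores. Its other probes gave 0.50 (called) and -0.07 (not called), so the probes of Mlxipl disagree. Arrdc4, an arrestin-domain protein that responds to glucose, differed by 0.69 ± 0.15, and Gpd1, which makes the glycerol phosphate for triglycerides, by 0.66 ± 0.08. Txnip, a glucose-induced relative of Arrdc4, was not called, at 0.15.

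The promoters of several of these genes hold the E-box core CACGTG, a motif that occurs in the element ChREBP is known to bind. The core reads the same on both strands, was searched in the 250 bases before each RefSeq gene start (GRCm38.p6), and was found in 1978 of 32851 windows (6.02%). Among the ChREBP and fructose genes it was found in 4 of 11 windows, those of Khk, Mlxipl (1 of 2 starts), Fgf21 and Arrdc4, and among the fatty acid synthesis genes in 2 of 21, those of Elovl5 and Slc25a1. It was found in 4 of 19 windows of cholesterol synthesis, 3 of 14 of the citrate cycle (all of 1 gene) and 3 of 18 of the immediate early genes. Glycolysis had 2 of 25 and the respiratory chain 1 of 13. Counted by gene, it was found in 4 of 9 ChREBP and fructose genes, 4 of 16 of cholesterol synthesis and 3 of 14 immediate early genes, against 6.86% of all genes. It was thus not found in the ChREBP list alone. The 4 windows of genes that were higher and kept are shown 5′ to 3′ with the core in capitals, so that its place can be seen. They lie at chr5:135089640-135089889 (plus strand), chr7:45615491-45615740 (minus), chr7:68749239-68749488 (minus) and chr16:17928220-17928469 (minus), and the core ends 92, 44, 187 and 233 bases before the start.
Mlxipl: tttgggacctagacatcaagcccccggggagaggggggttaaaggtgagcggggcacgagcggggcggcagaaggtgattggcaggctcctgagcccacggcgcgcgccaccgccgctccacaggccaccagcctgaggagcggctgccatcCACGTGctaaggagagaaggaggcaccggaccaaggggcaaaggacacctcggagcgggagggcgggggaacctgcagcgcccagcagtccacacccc
Fgf21: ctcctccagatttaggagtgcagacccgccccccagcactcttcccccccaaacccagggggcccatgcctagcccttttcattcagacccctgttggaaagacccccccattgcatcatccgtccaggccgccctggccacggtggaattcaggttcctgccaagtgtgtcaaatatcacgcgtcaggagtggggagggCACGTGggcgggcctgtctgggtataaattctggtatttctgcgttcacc
Arrdc4: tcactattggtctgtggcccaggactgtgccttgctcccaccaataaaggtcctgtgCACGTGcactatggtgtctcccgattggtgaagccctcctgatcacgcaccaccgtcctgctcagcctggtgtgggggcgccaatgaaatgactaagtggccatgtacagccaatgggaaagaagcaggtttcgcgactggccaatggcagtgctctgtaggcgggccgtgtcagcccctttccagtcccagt
Slc25a1: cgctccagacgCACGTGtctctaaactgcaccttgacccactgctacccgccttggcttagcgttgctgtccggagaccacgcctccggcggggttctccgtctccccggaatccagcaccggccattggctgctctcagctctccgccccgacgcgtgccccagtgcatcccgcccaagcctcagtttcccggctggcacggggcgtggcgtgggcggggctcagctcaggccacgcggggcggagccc

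Fatty acid synthesis was higher in total ChREBP WT. Of 20 genes, 13 were called higher and none lower, the median was 0.53 against 0.04 over the brightest probe of all genes, and 9 calls were kept. Over all genes, 13.3% were called higher and 2.71% were kept higher. Elovl6, which lengthens palmitate (chromosome 3, 129337756 to 129337815), read 15.12, 15.36 and 15.63 in total ChREBP WT and 13.39, 14.19 and 14.79 in ChREBPβ WT, a difference of 1.31 ± 0.17 (adjusted p = 2.83e-05). Slc25a1, the mitochondrial citrate carrier whose promoter is shown above, read 15.31, 15.57 and 16.02 against 13.83, 14.51 and 15.07, a difference of 1.18 ± 0.14. Me1, which supplies NADPH, read 17.62, 17.74 and 17.86 against 16.32, 16.69 and 17.25, a difference of 1.00 ± 0.11. None of the 3 overlapped between the groups, and with the scores they differed by 1.53, 1.16 and 1.14. In the whole list, 8 of 20 genes did not overlap, against 5.42% of all genes by their brightest probe.

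Acaca, which makes malonyl-CoA, differed by 0.68 ± 0.09, Acly, which splits citrate, by 0.53 ± 0.10, and Srebf1, a transcription factor of lipid synthesis, by 0.53 ± 0.09, all kept. Acss2 (acetyl-CoA from acetate) at 1.04 and Acacb (the mitochondrial malonyl-CoA enzyme) at 0.84 were called but not kept, with 0.97 and 0.58 left. Fasn, the fatty acid synthase, cannot be read here, since it sat at 18.79, the highest value of the normalised scale, on all wild-type arrays but replicate 6 of ChREBPβ WT. Scd1, the stearoyl-CoA desaturase, was bright and not called, at 0.17.

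Glucose uptake and breakdown moved with it. Of 16 glycolysis genes, 9 were called higher and none lower, with a median of 0.25, and 6 were kept. The shares over all genes were 13.3% called higher and 2.71% kept higher. Slc2a4 read 16.01, 16.29 and 16.38 in total ChREBP WT and 14.96, 15.25 and 15.65 in ChREBPβ WT, a difference of 0.93 ± 0.12 (adjusted p = 2.33e-05). Hk2, the hexokinase of insulin-responsive tissues, differed by 0.94 ± 0.12 and Pfkl, a phosphofructokinase, by 0.97 ± 0.10. Eno1 and Pkm, late glycolytic enzymes, differed by 0.68 ± 0.07 each. The steps Tpi1, Hk1 and Slc2a1 lay at -0.04 to 0.00 and were not called.

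Mitochondrial genes were higher by smaller amounts. Of 11 genes of pyruvate oxidation and the citrate cycle, 10 were called higher, with a median of 0.34 and 4 kept. For this list and the next, the shares over all genes were 13.3% called higher and 2.71% kept higher. Pdha1 and Pdhb, subunits of pyruvate dehydrogenase, differed by 0.79 ± 0.09 and 0.64 ± 0.09. Cs, citrate synthase, read 16.82, 17.00 and 17.04 in total ChREBP WT and 16.32, 16.52 and 16.69 in ChREBPβ WT, a difference of 0.47 ± 0.05 (adjusted p = 8.57e-06). The groups did not overlap for Cs, nor for 6 of the 11 genes of its list with Cs included, against 5.42% of all genes. Of 17 respiratory chain genes, 14 were called higher and none lower, with a median of 0.28 without and 0.30 with the scores. Cycs, cytochrome c, differed by 0.41 ± 0.06. Only 3 of the 14 were kept, while the median hardly moved and the error grew. Ppargc1a, a coactivator of mitochondrial genes, read 9.83, 9.96 and 10.29 against 8.38, 8.88 and 9.38, a difference of 1.13 ± 0.15 (adjusted p = 2.85e-05) that was kept at 1.44.

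**Figure D3:**
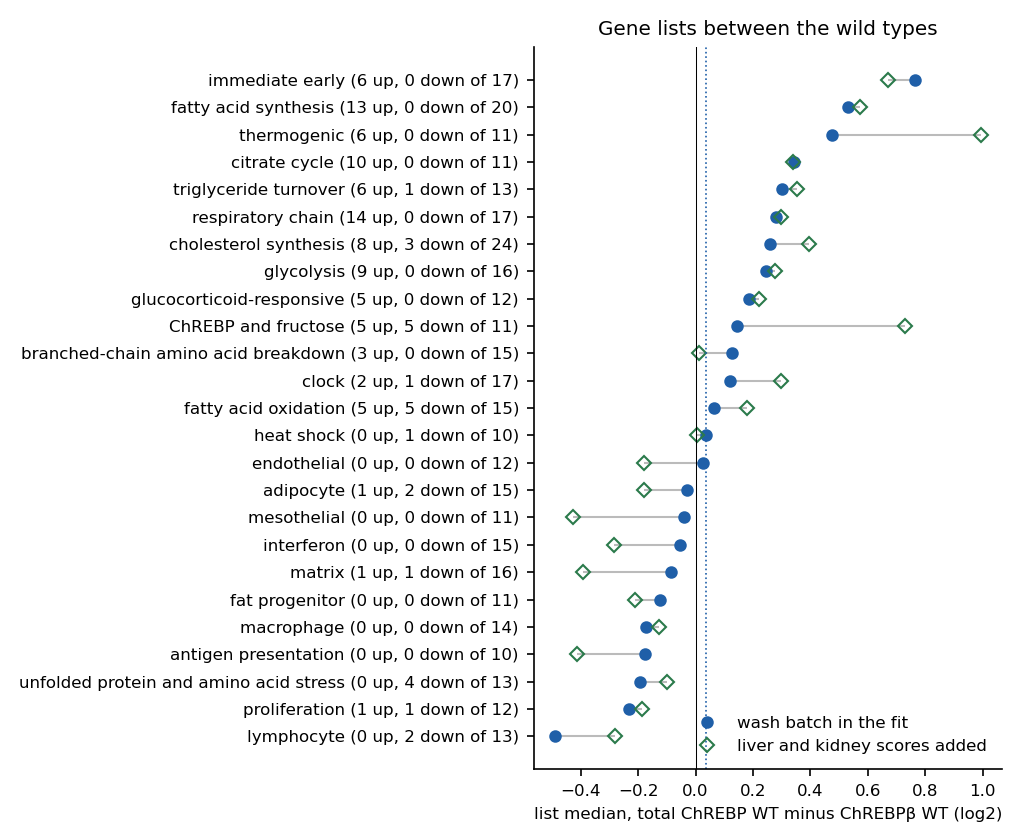
Median difference between the wild types (log2, horizontal axis) of 25 gene lists, with the wash batch in the fit (blue) and with liver and kidney scores added (green diamonds); the counts of genes called up or down in total ChREBP WT stand beside each name, and the dotted line is the median of all genes, 0.04. Fatty acid synthesis, citrate cycle and respiratory chain medians hardly move with the scores, and that of the ChREBP and fructose list goes from 0.15 to 0.73.

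Fat turnover was mixed. Of 13 triglyceride genes, 6 were called higher and 1 lower, against 13.3% and 8.59% of all genes. Lpin1, the phosphatidate phosphatase, was higher by 0.64 ± 0.07 and kept, and Gpam, which starts glycerolipid synthesis, was higher by 0.50 and kept. Abhd5 and Lipe, which serve lipolysis, differed by 0.98 and 0.50, called but not kept. The lower gene was Pck1, which makes glycerol phosphate precursors from pyruvate, with 12.80, 13.09 and 13.73 in total ChREBP WT and 12.86, 14.78 and 15.30 in ChREBPβ WT. Only replicate 2 of ChREBPβ WT, at 12.86, lay in the range of total ChREBP WT. The difference was -1.45 ± 0.29 (adjusted p = 0.00137), and -1.51 with the scores (adjusted p = 0.086, not kept).

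Of 15 fatty acid oxidation genes, 5 were called higher and 5 lower. Of the lower ones, 3 rose with the liver score, among them Ppara (the nuclear receptor of fatty acids, -1.25) and Acaa2 (a mitochondrial thiolase, -0.63). Hadha, of the mitochondrial trifunctional protein, and Slc25a20, the carnitine carrier, were higher by 0.55 and 0.65 and kept. Of 24 cholesterol synthesis genes, 8 were called higher and 3 lower. Cyp51 and Lss, enzymes that act on and form lanosterol, were the kept ones, at 0.88 ± 0.12 and 0.86, and 1 of the lower genes rose with the liver score. Branched-chain amino acid breakdown had 3 of 15 genes called higher and a median of 0.13. Over all genes, 13.3% were called higher and 8.59% lower.

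Genes of brown and beige fat were among the large differences although Ucp1, the uncoupling protein, was not called, at 4.64 to 5.15 in total ChREBP WT and 4.32 to 5.22 in ChREBPβ WT, close to the bottom of the scale. Of 11 thermogenic genes, 6 were called higher and Ppargc1a was the one kept, against 13.3% called higher and 2.71% kept higher among all genes. Cidea, a lipid droplet protein, read 11.48, 11.69 and 13.82 in total ChREBP WT and 9.77, 10.19 and 10.74 in ChREBPβ WT, a difference of 2.01 ± 0.42 (adjusted p = 0.00172) and of 1.90 with the scores (adjusted p = 0.133). Its highest arrays were replicates 2 and 4 of total ChREBP WT, at 13.82 and 13.21. Lncbate1, a long noncoding RNA of brown adipocytes, was highest on the same arrays (12.54 and 11.88) and was kept, at 1.54 ± 0.27 (adjusted p = 0.000427), although its second probe gave -0.16 (adjusted p = 0.173).

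Adipocyte genes as a list differed little, with a median of -0.03, 1 call up (Slc2a4) and 2 down. Adipoq, adiponectin, differed by -0.03 ± 0.11 (adjusted p = 0.874). Adrb3, the fat β-adrenergic receptor, read 14.69, 14.99 and 15.17 in total ChREBP WT and 15.28, 15.70 and 16.33 in ChREBPβ WT, a difference of -0.76 ± 0.15 (adjusted p = 0.000902) that was kept. Lep, leptin, differed by -0.83 ± 0.25 (adjusted p = 0.0193, not kept). No gene was called among the 11 fat progenitor, 11 mesothelial, 12 endothelial, 14 macrophage, 15 interferon and 10 antigen presentation genes, with medians of -0.18 to 0.03. Of 13 lymphocyte genes, Cd79b (B cell receptor) at -0.88 and Cd4 (T cell co-receptor) at -0.49 were called lower, against 8.59% of all genes. The median was -0.49. In a bulk sample, fewer cells of a type and less RNA per cell cannot be told apart.

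Immediate early genes, which respond within minutes to handling, stress or growth signals, were higher and more variable in total ChREBP WT. Of 17 genes, 6 were called higher and none lower, with a median of 0.76, and Ier3 was the one kept. Among all genes, 13.3% were called higher and 2.71% were kept higher. Fos read 10.01, 11.14 and 13.49 in total ChREBP WT and 8.59, 9.03 and 9.76 in ChREBPβ WT, a difference of 2.52 ± 0.60 (adjusted p = 0.00452). Fosb read 7.66, 8.92 and 11.84 against 6.56, 7.13 and 7.50, a difference of 2.03 ± 0.47, and Nr4a1 differed by 1.62 ± 0.37. All 3 genes were picked for not overlapping between the groups. The total ChREBP WT arrays spread widely for Fos, where replicates 2, 3 and 4 were highest (12.62, 13.49 and 12.60).

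Of 12 glucocorticoid-responsive genes, 5 were called higher. Sgk1, a kinase induced by steroids and insulin, read 11.98, 12.52 and 12.70 against 10.98, 11.27 and 11.73, a difference of 1.09 ± 0.14 (adjusted p = 2.42e-05) and was kept. Fkbp5 and Tsc22d3, which glucocorticoids strongly induce, were not called, at -0.08 and -0.27. Of 17 clock genes, 2 were called higher (Per1 at 0.82, Bhlhe40 at 0.80) and 1 lower (Per2 at -0.50), no more than the 13.3% and 8.59% over all genes. Of 13 unfolded protein response genes, 4 were called lower, among them Hspa5, the main chaperone of the endoplasmic reticulum, at -0.39, and none was kept. Calls were also few in the 10 heat shock genes (Hspb1 lower, at -0.42, kept), the 16 matrix genes (Sparc at -0.22, kept, and Mmp2 at 0.58) and the 12 proliferation genes (Tyms at 0.27, kept, and Ccnb1 at -0.46). Skeletal muscle had 6 of 11 genes called higher, none kept, and 1 of 8 genes known to differ among C57BL/6 substrains was called, Cyfip2, at -0.40. Of 4 sex-linked genes, 3 were called higher and none was kept, with a median of 0.27.

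**Figure D4:**
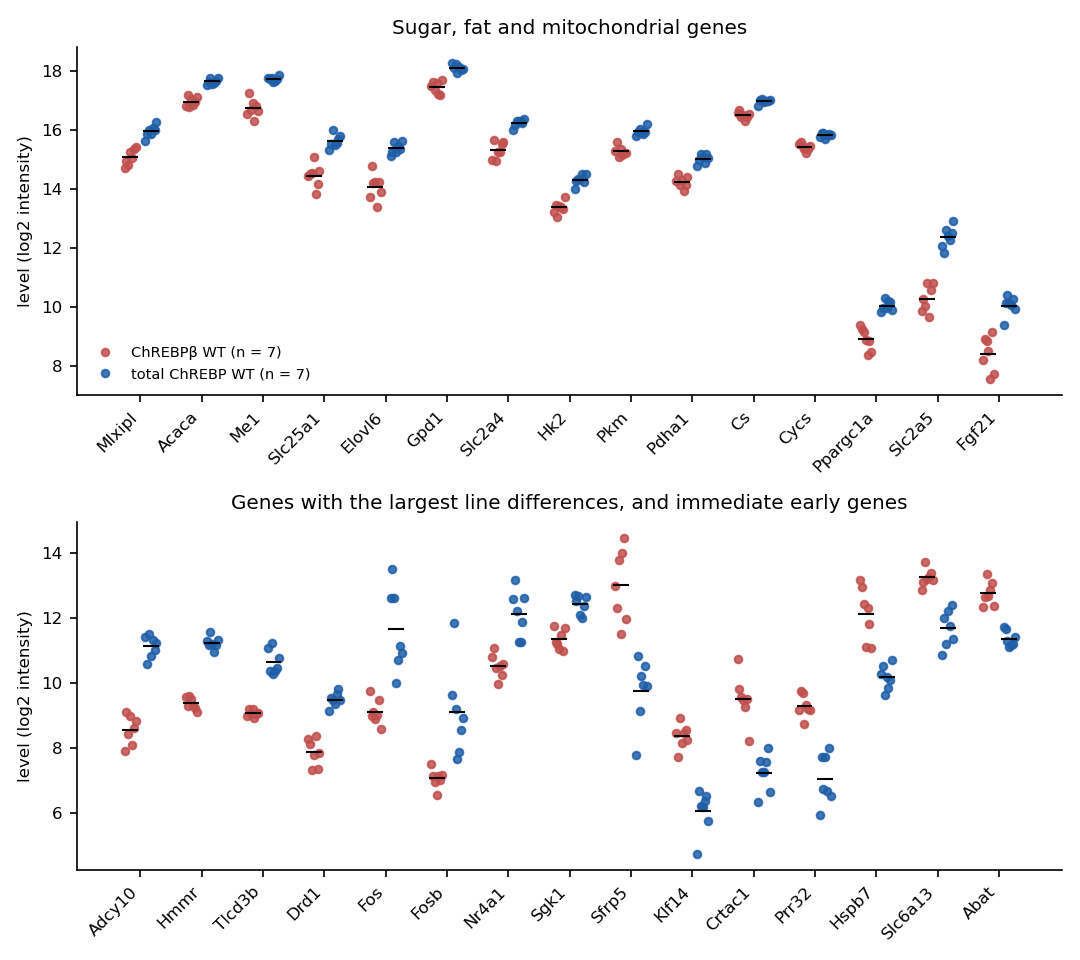
Log2 level (vertical axis) of 30 genes on each wild-type array, ChREBPβ WT in red and total ChREBP WT in blue (n = 7 each), with a black line at the mean. The upper panel holds selected sugar, fat and mitochondrial genes. Those plotted do not overlap between the groups, but other genes of their lists do, and 5.42% of all genes do not overlap. The lower panel holds the genes with large line differences, among which Fos and Fosb spread widely in total ChREBP WT.

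The largest kept differences lay in genes outside these lists. Those named were picked for being kept and for not overlapping between the wild types, so neither is a result for them. Upwards, Adcy10, the soluble adenylyl cyclase (chromosome 1, 167505771 to 167506673), read 10.59, 11.22 and 11.51 in total ChREBP WT and 7.91, 8.60 and 9.09 in ChREBPβ WT, a difference of 2.57 ± 0.18 (adjusted p = 4.06e-08). Hmmr, a hyaluronan receptor (chromosome 11, 40515324 to 40515383), read 10.94, 11.20 and 11.57 against 9.10, 9.31 and 9.61, a difference of 1.86 ± 0.12 (adjusted p = 2.14e-08). The groups lay more than a unit apart for both genes, and with the scores the differences were 2.68 and 2.09. Hmmr is also used as a marker of dividing cells. Of 12 proliferation genes, 1 was called higher and 1 lower, with a median of -0.23. Mki67 and Top2a, cell division markers, were not called, at -0.32 and -0.33. Whether cell division differed between the wild types was not tested.

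Drd1, the dopamine D1 receptor, was higher by 1.62 ± 0.21, Impa2, an inositol monophosphatase, by 1.73 ± 0.16, Recql4, a DNA helicase, by 1.62 ± 0.21, Dixdc1, a Wnt pathway protein, by 1.75 ± 0.22, and Tlcd3b by 1.58 ± 0.13. Within each wash batch these genes kept their direction, with Tlcd3b at 1.15 to 1.91. Besides Lncbate1, Tectb and Mt1 had probes that disagreed. Tectb, a matrix protein of the inner ear, was higher by 2.43 ± 0.44 on its brightest probe and by 1.90 on a second, while the other gave 0.05. Mt1, metallothionein, was higher by 3.14 ± 0.43 on the less bright of its probes, whereas its brightest probe gave -0.12 (adjusted p = 0.544), so no direction can be given for the gene.

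Downwards, Sfrp5, a secreted Wnt inhibitor made by adipocytes (chromosome 19, 42272509 to 42272568), read 7.78, 9.95 and 10.81 in total ChREBP WT and 11.51, 12.97 and 14.46 in ChREBPβ WT, a difference of -3.24 ± 0.54 (adjusted p = 0.000296). Klf14, a zinc-finger transcription factor (chromosome 6, 30906200 to 30906259), read 4.75, 6.22 and 6.69 against 7.74, 8.47 and 8.91, a difference of -2.30 ± 0.33 (adjusted p = 8.9e-05). Crtac1 (chromosome 19, 42358129 to 42358630), which lies close to Sfrp5, differed by -2.27 ± 0.29, with -0.98 on its second probe. With the scores the 3 differences were -3.78, -2.66 and -2.61, and the choice of these genes required that the groups not overlap.

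Slc6a13, a GABA transporter, was lower, with 10.86, 11.75 and 12.38 in total ChREBP WT and 12.87, 13.20 and 13.73 in ChREBPβ WT, and differed by -1.57 ± 0.20 (adjusted p = 2.83e-05). Abat, the GABA transaminase, differed by -1.39 ± 0.15 on its brightest probe, and by -0.90 with the scores. Its other probes gave -0.86 and -0.38 (called, not kept) and -0.12 and -0.01 (not called). Rimkla, which joins N-acetylaspartate to glutamate, differed by -1.53 ± 0.14 and was dim in total ChREBP WT, with 6 of 7 arrays well above background. Nat8l, which makes N-acetylaspartate in fat, was higher, at 1.56 ± 0.21, and was called but not kept (1.01 with the scores, adjusted p = 0.0658). Hspb7, a small heat shock protein, differed by -1.94 ± 0.30, Prr32 by -2.24 ± 0.34 and Unc79, a subunit of a sodium leak channel, by -1.67 ± 0.25.

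Slc22a2, an organic cation transporter of the kidney, met the rule for kept genes at -1.98 ± 0.43 but also rose with the kidney score (slope 0.80, adjusted p = 0.00250). Its levels of 9.01, 9.25 and 7.52 were on replicates 1, 3 and 7 of ChREBPβ WT, the kidney-positive arrays, and 5.85 to 6.06 on the other 4, above the 4.61 to 5.67 of total ChREBP WT. Homer2, a synaptic scaffold, differed by -1.51 ± 0.16 on the named probe and by 0.07 (adjusted p = 0.775) on its brightest probe.

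A stretch of chromosome 1 held the densest group of kept differences. Among 1604 windows of 1 Mb with at least 8 probes, the one starting at 85000001 had the highest share of probes that were kept and also called in the same direction between the knockouts, 8 of 21 probes (38.1%), all lower in the total ChREBP line. The probe of LOC100039029 (chromosome 1, 85198851 to 85198910) read 4.76, 5.15 and 5.26 in total ChREBP WT and 7.68, 10.16 and 11.13 in ChREBPβ WT, a difference of -4.65 ± 0.60 (adjusted p = 2.83e-05). It was dim in total ChREBP WT, where 6 of 7 arrays were well above background. C130026I21Rik (85243308 to 85243367) differed by -2.90 ± 0.42, and its other probes by -1.23 and -1.42. The probes of Gm7609 differed by -3.56 and -2.31. The probe at -2.31 was well above background on only 3 of 7 total ChREBP WT arrays, so its size is not exact. The groups did not overlap for LOC100039029, Gm7609 or the C130026I21Rik probe with the largest difference.

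The knockouts gave nearly the same values, -4.47 for LOC100039029 and -2.79 for C130026I21Rik, and the slopes of the probes in this stretch on the liver score were not called, with adjusted p of 0.80 to 0.96 for the probes named. Csprs, whose probe the array design places on unassembled chromosome 8 sequence, differed by -3.61 ± 0.57 between the wild types and by -3.75 between the knockouts. These transcripts belong to families of near-identical copies, so which copy a probe reads is uncertain. Outside it the values were small: the probes of Trip12, on one side, lay between -0.15 and 0.22 (1 called, at 0.22), and those of Sp110, beyond the other side, between -0.25 and 0.10 (none called). Single probes of Pid1 (-0.57, kept) and Sp140 (-0.71, not kept) in the flanks were called lower.

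**Figure D5:**
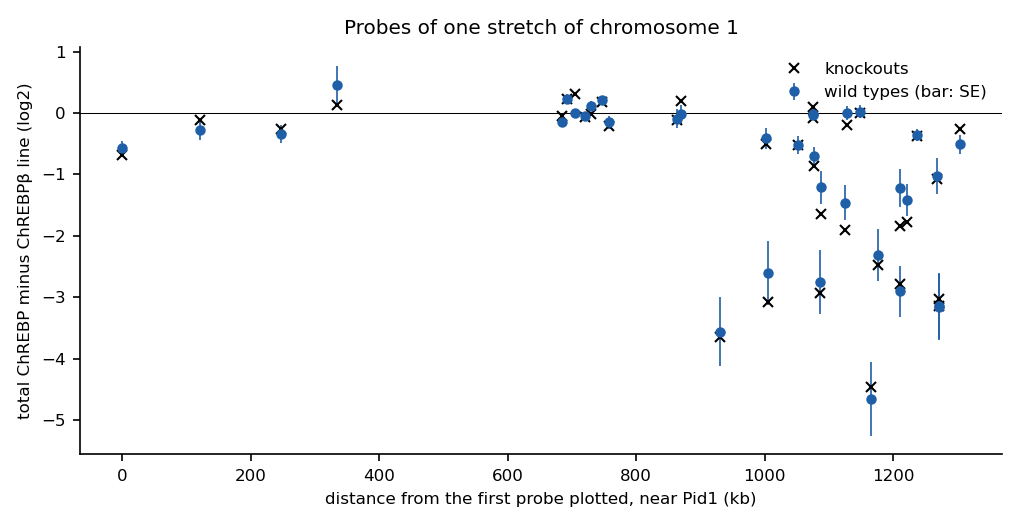
Difference between the lines (log2, total ChREBP minus ChREBPβ) of each probe in a stretch of chromosome 1, against its distance in kb from the first probe plotted; blue points are the wild types with SE bars and crosses the knockouts. The probes on the left lie near 0 and those on the right reach -4.65, with wild types and knockouts close together.

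The knockouts of the 2 lines were compared in the same model, so they share its error, its batch terms and its score slopes with the wild-type comparison, and they also differ in which ChREBP isoforms are lost. Between them 7161 probes (17.7%) were called, 11.7% higher and 5.91% lower in total ChREBP KO. Of the 8840 wild-type calls, 39.1% were called in the same direction between the knockouts, which is 48.3% of the knockout calls. Of the kept calls, 43.5% were called in the same direction and 10.2% in the opposite one. Kept lower calls were opposite in 1.89% and kept higher calls in 15.9%.

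The respiratory chain kept its direction, with 16 of 17 genes called higher in total ChREBP KO and a median of 0.33 against 0.28 between the wild types, where 11.0% of all genes were called higher and 6.96% lower. Fatty acid synthesis did not, with 4 called higher and 7 lower and a median of 0.00 against 0.53. Elovl6 differed by -1.95 between the knockouts, Acaca by -1.14 and Slc2a5 by -3.33, so the line difference changed by -3.26, -1.82 and -5.42, each called in the test of that change (adjusted p = 6.7e-08, 2e-08 and 1.1e-06). That test called 3.40% of all genes by their brightest probe. Ppargc1a (1.11), Cycs (0.40), Cs (0.39) and Arrdc4 (0.78) were higher in total ChREBP KO as well. Sfrp5 at -5.00, Klf14 at -3.02, Rimkla at -1.22 and Abat at -1.31 (brightest probe) were lower in total ChREBP KO too. Adcy10 was not, at -1.47 after 2.57 (its other probes gave -1.40, -0.66 and a value near 0 between the knockouts), and Hmmr differed by 0.06 between the knockouts after 1.86, changes of -4.04 and -1.81 (adjusted p = 1.3e-08 and 2.3e-06).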

How the data were processed

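Cy3-labelled pgWAT RNA was hybridised by the authors to 1-colour SurePrint G3 mouse arrays and read with Agilent Feature Extraction 10.10.1.1. Per the file headers, the deposited intensity is each spot's median over its pixels, with no background subtracted. The authors' deposited series table holds log2 values of the 40561 probes that passed their filter (lowest correlation with the log2 intensity of the same array, 0.9998). It fixed the probes tested and was otherwise an alternative.

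Here, log2 median intensities of those probes were quantile normalised over 25 arrays, replicated spots were merged by their median, and spots flagged as outliers (1467) were set to missing. RefSeq tables named 26174 probes by accession and 6295 by symbol, older symbols named 315 more, and 7777 carry the name in the array design. Across all of these, 10602 probes have only an identifier as a name. A model of the 4 groups and wash batch was fitted in R 4.3.3 with the lmFit and eBayes functions of limma 3.58.1 (18 residual and 2.49 prior degrees of freedom), and p-values measure the spread between these mice. A gene counted if at least 1 probe was called, and in lists it stood by its brightest probe. The number of arrays limits the precision. On simulated data of 40561 probes for the wild-type comparison, 97% of differences of 1 and 68% of 0.5 were called and 75% and 12% kept. The noise was drawn independently for each probe and array with no batch effect, so these shares can be too high for real arrays. Of 200 probes made to follow the liver score all were called and 0 kept, which is built in, since the score fitted is the one added to them.

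A few list members are not reported here. Named genes were those with a symbol, called, and not overlapping between the wild types: the 12 largest in each direction among kept calls outside the organ lists and the 8 largest in each direction among the others, with list members and Mlxipl. The genes, lists and comparisons were chosen with earlier results of these data known. Same-numbered wild types did not deviate together (correlation -0.13 to 0.27 over 6 numbers), so numbers were not taken to pair the mice. Alternatives varied the arrays, batch, slide, background, normalisation, probe filter, weights and scores.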

Additional observations from a re-analysis of the deposited data

Results flagged for a closer look

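Among 174 groups of 7 wild-type values examined, 11 had an array far from the rest, where chance gives about 8.7 (1 in 20). Replicate 2 of total ChREBP WT stood apart for the epididymis list (11.04), the testis list (9.28), Adam7, an epididymal protein (15.60 against a median of 7.93), Cyp2a4 (8.94) and Cs (16.82, low). Replicate 2 of ChREBPβ WT stood apart for the testis list (10.17) and for Pck1 (12.86, low). The other values were Fasn at 18.68 and Lpin1 at 13.89 in ChREBPβ WT, and Hadha at 11.26 and Srebf1 at 16.70 in total ChREBP WT.

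The line difference changed between wild types and knockouts, by the test of that change, for 8 of 40 genes picked by rule and 19 of 40 list genes named, against 3.40% of all genes by their brightest probe. The first were picked for large wild-type differences, and most of the list genes named were called between the wild types. Both choices favour such a change, so neither count is a result beside the 3.40%. Values are those of 1 probe a gene. Among the first, it changed by -5.42 for Slc2a5, -4.04 for Adcy10, -3.27 for Fgf21, -2.49 for Nat8l, -2.31 for Dixdc1, -1.81 for Hmmr, -1.46 for Impa2 and -1.32 for Tlcd3b. Among fat synthesis genes it changed by -3.26 for Elovl6, -1.82 for Acaca, -1.55 for Acly, -1.04 for Me1, -0.86 for Slc25a1, -0.51 for Srebf1 and -0.32 for Fasn, whose size is not exact because it sits at the top of the scale in the wild types. In glucose use it changed by -1.39 for Eno1, -1.38 for Pdha1, -1.33 for Slc2a4, -1.28 for Hk2, -1.16 for Pdhb, -1.14 for Gpd1, -1.09 for Pkm and -1.02 for Mlxipl. It changed by -3.58 for Kcnk3, a potassium channel of thermogenic fat, and -1.06 for Dusp1, a stress-induced phosphatase. The opposite sign was seen for Pck1 (2.48) and Adrb3 (1.38).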

How the results depend on the processing

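The 7085 genes called between the wild types became 2485 with the liver score in the fit, 2292 with liver and kidney scores (48.3% higher in place of 64.5%), 637 with an epididymis score as well, 1756 at 1.5-fold or more, and 3296 without replicates 1, 3 and 7 of ChREBPβ WT and replicate 2 of total ChREBP WT, an omission chosen after seeing the data. The 1654 genes kept became 4600 with the kidney score alone, 498 with the epididymis score added, 154 without those 4 arrays and 3 with only the 14 wild-type arrays. The 2896 genes called the same way between the knockouts became 1065, 271 and 1614 with the liver score, with all 3 scores and without the 4 arrays; this count cannot be made from the wild types alone. With the replicate number as a block, 6237 genes were called and 927 kept. Leaving out 1 array gave 5613 to 7442 genes called, 605 (without replicate 2 of total ChREBP WT) to 2250 kept and 2434 to 3064 shared with the knockouts, and medians of -5.30 to -4.34 for liver, -0.95 to -0.50 for kidney, 0.47 to 0.57 for fatty acid synthesis, 0.21 to 0.27 for glycolysis, 0.30 to 0.38 for the citrate cycle, 0.26 to 0.30 for the respiratory chain and 0.54 to 0.92 for immediate early genes. Scaling to the 75th percentile gave 0.68, 0.37, 0.46 and 0.44 for fatty acid synthesis, glycolysis, citrate cycle and respiratory chain, and the mean over probes 0.42 for glycolysis. The liver median was 0.10 with the liver score and -0.013 with all 3 scores, where immediate early genes gave 0.35. Differences that turned sign were Ttr (0.21) and Khk (0.072) with the liver score, and Ttr (0.22) and Khk (0.84) with all 3, under which 54 of the 80 named genes were no longer called. The cause was not tested.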
